A study of Macaca mulatta with 3 samples.

Results

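Peak-free stretches of at least 1 Mb in the H3K4me3 map of the macaque prefrontal cortex are described here. They are the gaps between consecutive deposited H3K4me3 peaks on chromosomes 1 to 20 that were 1 Mb or longer and held input tags at 50% or more of the genome mean of 3.2 per kb. Of 23846 gaps between neighbouring autosomal peaks, 350 met both conditions. These stretches made up 1.47% of the gaps and 557 Mb, or 20.6% of the autosomal span of 2710 Mb. They were thus chosen on the absence of peaks in this ChIP library and on the input tags, so their ChIP and input values below are a description of what was chosen and carry no test.

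Trimethylation of lysine 4 on histone H3 (H3K4me3) is laid down by SET1 and MLL methyltransferase complexes, which are drawn to CpG-rich promoters, and it marks active or poised transcription start sites. Mammalian chromosomes also hold long intervals with few or no genes, often called gene deserts, where such promoters are sparse. Neurons express several genes of very great length, so a long interval without a promoter mark need not lack a gene. No gene was assigned to any stretch, because the assembly of the coordinates is not given in the sources used here, so the stretches are called peak-free and nothing more.

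The study mapped H3K4me3 to locate transcription start sites in the rhesus macaque (Macaca mulatta). The ChIP library came from post-mortem superior frontal gyrus of 1 male aged 3389 days and was made with antibody ab8580 from Abcam. The control was fragmented DNA of the same tissue that had not been precipitated (input). There was 1 library of each kind, of 10023993 ChIP and 9162762 input tags, so no difference has a replicate check. A bulk brain sample mixes neurons and glia, and a start site marked in few cells cannot be told apart from a weakly marked one. Another sample, of pooled RNA, was not analysed here.

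The stretches ranged from 1.00 to 6.61 Mb, with a median of 1.33 Mb and an interquartile range of 1.11 to 1.81 Mb. Most were near the lower limit: 212 were shorter than 1.5 Mb, 65 reached 2 Mb and 17 reached 3 Mb. The shortest stretch was 1001400 bases on chromosome 2, and the longest gap left out for length was 996000 bases, found on chromosomes 2 and 8. The condition on input removed 12 of 362 gaps of 1 Mb or more. Those 12 totalled 54.3 Mb and held input at only 6.05% of the genome mean, with the fullest of them, on chromosome 16 at 21055001 to 22468600, at 32.9%. The emptiest stretch that was kept, on chromosome 19, held input at 53.1%, so no gap lay within 3 percentage points of the limit.

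Every autosome carried at least 1 stretch, but their spread was uneven. Chromosome 5 had 41 stretches that covered 39.7% of its span, and chromosome 17 had 21 that covered 35.2%. Coverage was 28.4% on chromosome 6, 27.1% on chromosome 18, 27.0% on chromosome 2 and 26.1% on chromosome 4. At the other end chromosome 19 had 1 stretch covering 1.59%, chromosome 16 had 2 covering 4.46%, and chromosomes 20 and 10 had 4 and 5 covering 6.74% and 7.004%. Chromosomes 2, 4, 5 and 6 together held 132 of the 350 stretches and 39.1% of their length, on 26.5% of the autosomal span.

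Peaks were fewest per Mb on chromosome 5 (4.22) and most on chromosome 19 (29.8), and fewer peaks leave longer gaps by the rule. Chromosomes of like peak density still differed. Chromosomes 15 and 11 both had 9.1 peaks per Mb (9.12 and 9.10), but stretches covered 23.5% of the first and 11.2% of the second. Chromosome 14, with 11.1 peaks per Mb, had 18.9% of its span in stretches, and chromosome 1, with 10.9, had 14.1%.

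**Figure D1:**
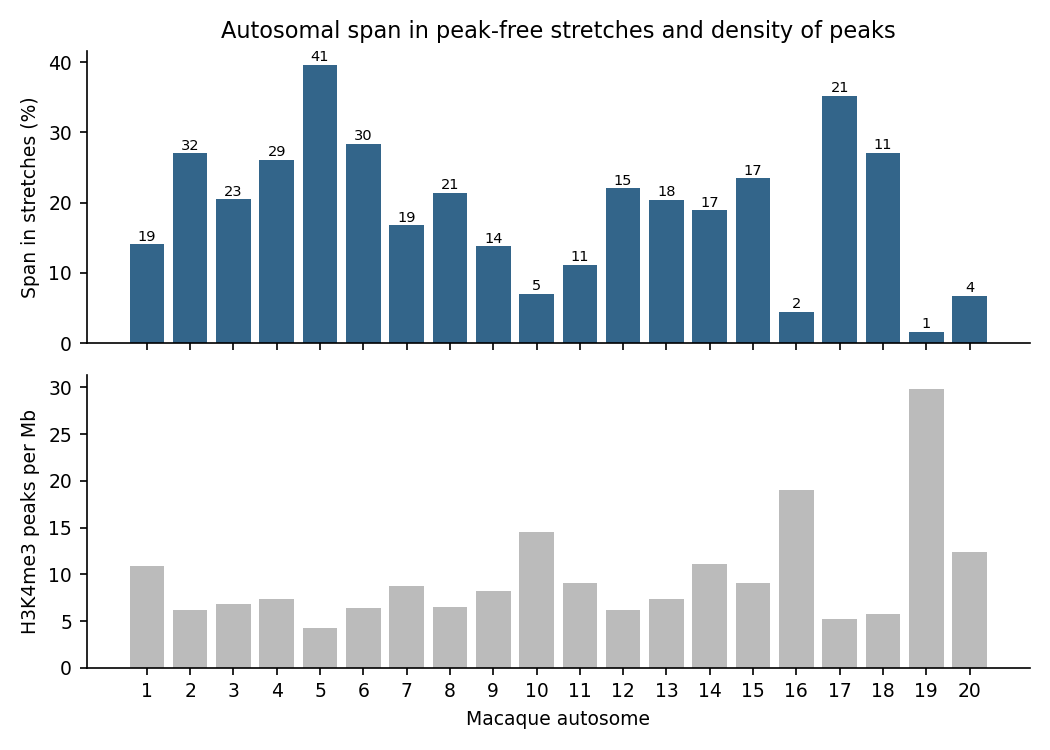
Upper bars give the share of each autosome's span that lies in peak-free stretches (%), with the number of stretches above each bar, and lower bars give H3K4me3 peaks per Mb. Coverage is highest on chromosomes 5 (39.7%) and 17 (35.2%) and lowest on chromosome 19 (1.59%), which has the most peaks per Mb.

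The stretches lay mostly in chromosome interiors. Only 4 of 350 came within 5 Mb of the first base or last tag of a chromosome, and 23 came within 10 Mb. Stretches covered 3.27% of the terminal 5 Mb at both ends of the autosomes, against 21.9% of the rest. The median stretch was 41.4 Mb from the nearer end.

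Some stretches followed each other with a lone peak in between. A total of 90 stretches stood in such runs, 42 pairs and 2 runs of 3, and the rest stood alone. On chromosome 6, 3 stretches and the 2 peaks between them ran from 17134001 to 29099400, 11.97 Mb in all. The 3 stretches, without the peaks, held 25180 ChIP and 27572 input tags, a ratio of 0.835 (0.821 to 0.849). On chromosome 18 a run of 3 extended from 30805601 to 37743000, and its stretches held 16489 ChIP and 17895 input tags, a ratio of 0.842 (0.825 to 0.860).

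The ratio used throughout is the count of ChIP tags over that of input tags, scaled by the totals of the libraries (whose ratio was 1.09), so that 1 means the same share of both libraries. Its brackets are exact Clopper-Pearson intervals at 95%, which cover counting error only. The total of the ChIP library includes the tags in peaks, so sequence without peaks falls below 1 on this scale. The stretches together held 1280920 ChIP and 1362735 input tags, and their pooled ratio was 0.859 (0.857 to 0.861). All shorter gaps together had 0.953 (0.952 to 0.954).

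Both libraries were thin in the stretches. Input stood at 76.5% of its genome mean and ChIP at 65.7% of its own. In the gaps under 1 Mb these values were 110.6% and 105.4%. The input of single stretches ran from 53.1% to 130.4% of the mean with a median of 75.0%, and it lay below the mean in 324 of 350. A low input density therefore went with the low ratio, and its part in the low ratio was not tested.

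Nearly every stretch had a ratio below 1. The median over stretches was 0.860 (0.855 to 0.864, from order statistics), with an interquartile range of 0.834 to 0.884. In 348 of 350 the ratio was below 1, and in 344 the whole interval was. Of the remainder, 4 had intervals that held 1 and 2 lay wholly above it. The 348 ranged only from 0.764 to 0.962.

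Longer stretches had lower ratios. The 212 under 1.5 Mb pooled to 0.878 (0.875 to 0.882), the 121 from 1.5 to 3 Mb to 0.845 (0.842 to 0.848) and the 17 of 3 Mb or more to 0.828 (0.822 to 0.835). Input fell in the same order, at 80.9%, 74.5% and 67.1% of the genome mean. Over the 348 stretches below 1, length had a Spearman correlation of -0.39 with the ratio and of -0.30 with input density. These points share 1 pair of libraries, and length itself depends on the ChIP tags through the peaks. In 4 sets of like size ordered by input density, the pooled ratio was 0.842, 0.847, 0.863 and 0.884 from the emptiest to the fullest set, whose median lengths were 1.54, 1.497, 1.31 and 1.15 Mb.

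**Figure D2:**
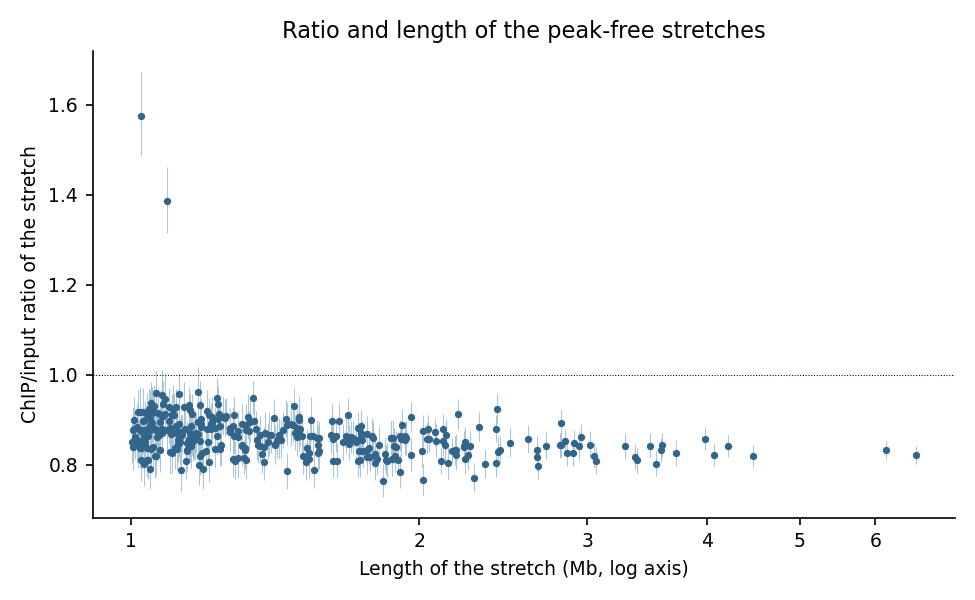
Each point is 1 of the 350 stretches, with its length in Mb on a log axis and its ChIP/input ratio, and vertical lines are exact 95% counting intervals. The 2 points above 1 (1.58 and 1.39) stand apart from the other 348, which lie between 0.764 and 0.962.

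The 10 longest stretches were much alike. On chromosome 5 the longest, from 25616201 to 32227800 (6.61 Mb), held 12995 ChIP and 14472 input tags, a ratio of 0.821 (0.802 to 0.841). The next, on chromosome 6 from 22940801 to 29099400 (6.16 Mb), held 12463 and 13690 tags and had a ratio of 0.832 (0.812 to 0.853). Both lay below the shorter gaps by far more than their counting intervals.

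Chromosome 5 carried 2 more of the 10, side by side, from 63724401 to 68197200 and from 68200001 to 72185800. They were parted by a single peak of 2.8 kb, and their ratios were 0.819 (0.795 to 0.844) and 0.857 (0.832 to 0.884). Chromosome 2 held the fourth in length, from 108251401 to 112456800 (4.21 Mb), with a ratio of 0.842. The lowest ratio of the 10 was on chromosome 8 from 112377801 to 115913600, with 5979 ChIP and 6812 input tags and 0.802 (0.775 to 0.831). The remaining 4, on chromosome 7 from 144732201 to 148803600, chromosome 4 from 61299401 to 65016800, chromosome 3 from 21109801 to 24700600 and chromosome 17 from 68053801 to 71638800, had ratios from 0.821 to 0.843. The intervals of the highest and the lowest of the 10 did not overlap, by a narrow margin.

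The 5 lowest ratios of all were found in stretches of 1.46 to 2.29 Mb, each longer than the median stretch of 1.33 Mb. Chromosome 15 from 66446601 to 68278400 had 3213 ChIP and 3843 input tags, a ratio of 0.764 (0.729 to 0.801). Of the other stretches among the 5 lowest, 3 were on chromosome 3, at 132082801 to 134102200 (0.765), 155502601 to 157787800 (0.771) and 130624601 to 132080400 (0.785). Chromosome 7 at 104640801 to 106552200 had 0.783. Their intervals all overlapped, so these 5 had no resolved order.

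The 2 stretches above 1 stood well apart. Chromosome 19 from 32584001 to 33608600 held 3002 ChIP and 1741 input tags, a ratio of 1.58 (1.49 to 1.67). Chromosome 3 from 67193601 to 68283200 held 3521 and 2321, a ratio of 1.39 (1.32 to 1.46). The next in order, on chromosome 2 at 119383201 to 120557400, chromosome 4 at 118328801 to 119390200 and chromosome 7 at 84273401 to 85394600, had 0.962, 0.960 and 0.957, each with an interval that held 1.

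In these 2 a ratio above 1 held along the whole stretch and on both strands. ChIP stood at 83.7% of its genome mean on chromosome 19 and 92.3% on chromosome 3, and input at 53.1% and 66.6%. Both libraries thus lay below their means there, input further than ChIP. The left and right parts of equal length had ratios of 1.52 and 1.64 on chromosome 19, and of 1.43 and 1.34 on chromosome 3. Counted by strand, the ratios were 1.499 and 1.66, and 1.41 and 1.36. Among bins of 10 kb, 88 of 96 and 94 of 106 were above 1. Each lay close to a gap left out for low input, at 0.6 kb on chromosome 19 (from 23883201 to 32583400) and 38.6 kb on chromosome 3 (from 62903401 to 67155000). Those gaps held input at 1.55% and 0.00735% of the genome mean. The only other stretch within 100 kb of such a gap, on chromosome 14 from 16236201 to 17256400, held 2280 ChIP and 2271 input tags, and its ratio was 0.918 (0.866 to 0.973). Codes U1 and U2 made up 20.7% and 19.3% of the ChIP tags of the 2 stretches. These shares lay above the interquartile range over all stretches (17.0% to 19.1%) and within the range of the other 348 (11.9% to 30.5%). With distinct tags of code U0 alone the ratios of the 2 stretches were 1.55 and 1.39. The 12 gaps of low input pooled to 1.12 (1.09 to 1.15).

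Stretches differed from each other by more than counting error. Among the 348, the standard deviation of the log2 ratio was 0.06, against a median counting error of 0.03. Ratios from the plus strand and from the minus strand, which share no tag, had a Spearman correlation of 0.531 over these stretches. The input density of the plus strand also had a Spearman correlation of 0.435 with the ratio of the minus strand. The part of input density in the agreement between strands was not tested. Ratios from even-numbered and odd-numbered bins of 10 kb had one of 0.461, and those of the left and right parts one of 0.390. The ratio was below 1 in both parts of all 348, and on both strands of 347. Within a stretch, the parts differed by a standard deviation of 0.08 on the log2 scale where counting alone gives 0.07.

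Chromosome by chromosome, stretches stood below the shorter gaps of the same chromosome on 19 of 20 autosomes. On the 18 autosomes with at least 4 stretches, pooled ratios ran from 0.846 (chromosomes 5 and 18) to 0.890 (chromosome 10) in stretches, and from 0.906 to 0.989 in the shorter gaps. The difference, stretches minus shorter gaps, ran from -0.120 (chromosome 20) to -0.0602 (chromosome 5). Chromosome 19, with its single stretch, was the exception, at 1.58 against 1.16.

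At the scale of 10 kb, most bins of the stretches had ratios below 1. Of the 55344 bins of 10 kb that lay wholly inside stretches, 54572 held at least 5 input tags. Another 532, spread over 139 stretches, held no input tag, and 509 of those held no ChIP tag either. A typical bin held 22 ChIP and 24 input tags. The median bin had a ratio of 0.849 (0.849 to 0.853), and the middle 50% of bins ran from 0.686 to 1.04. Bins without a peak elsewhere had a median of 0.914 and an interquartile range of 0.770 to 1.10, so the distributions largely overlapped. Bins that touched a peak had a median of 1.49. Ratios below 1 made up 70.5% of bins in stretches, against 59.3% of all autosomal bins.

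The spread of bins within a stretch was close to that of counting. The variance of the bin counts around the stretch's own ratio was 1.04 times the binomial expectation at the median (interquartile range over stretches 0.956 to 1.14, highest 1.64). At about 24 input tags a bin, differences of the size seen between stretches would hardly show, so this value does not show that stretches are uniform.

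**Figure D3:**
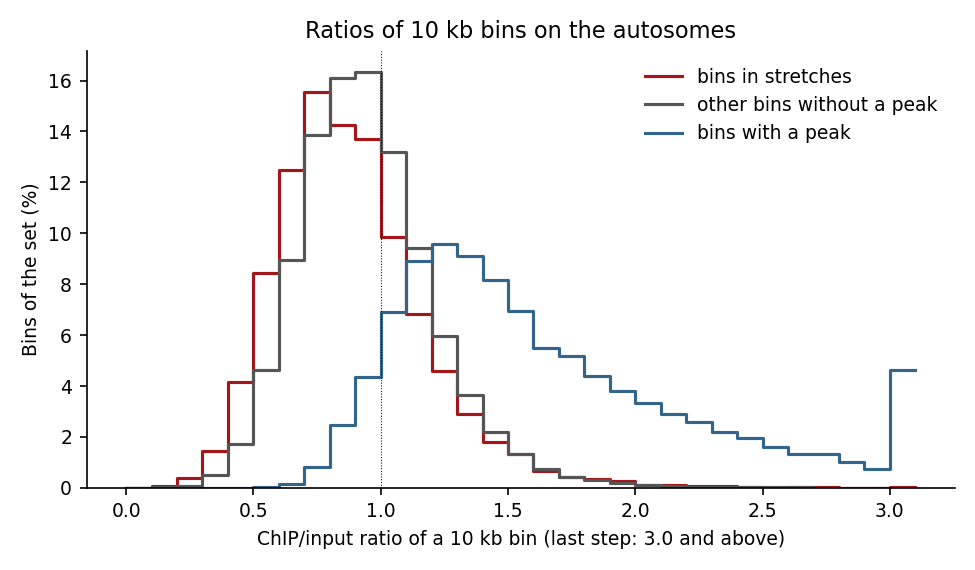
Lines give the share of bins (%) by ChIP/input ratio, in steps of 0.1 with all values of 3.0 and above in the last, for 10 kb bins with at least 5 input tags. Bins in stretches (median 0.849) lie slightly left of other bins without a peak (0.914), and bins with a peak (1.49) lie to the right with a long tail.

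Each bin was compared between the libraries with a two-sided exact binomial test, adjusted by Benjamini-Hochberg over 260416 autosomal bins. In stretches 17 bins (0.0312%) were higher in ChIP at an adjusted p below 0.05, against 2.62% of all bins. The absence of peaks makes this low share likely, so nothing is read from it. In the other direction 237 bins (0.434%) of 157 stretches were higher in input, against 0.267% of all bins. Among the 183493 other bins without a peak, 457 were. Sequence without peaks falls below 1 on this scale, which favours calls towards input, so nothing is read from this share either. The 17 depended on settings: 34 were called with scaling by autosomal tags outside peaks, and 4 among bins with at least 20 input tags.

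Of the 17 bins higher in ChIP, 1 (on chromosome 9) was called only with repeated tags counted. A further 10 lay in the 2 stretches above 1, 7 of them on chromosome 19 and 3 on chromosome 3. The 6 that remain were on chromosomes 1, 3, 5, 10 and 11. The steepest lay between 167890001 and 167900000 on chromosome 5, with 55 ChIP tags to 14 of input and a ratio of 3.59 (1.97 to 6.99), 183 kb from the nearer bounding peak. Its fullest 1 kb, from 167895001, held 15 ChIP tags and 1 input tag, and all 10 windows of 1 kb held ChIP tags. In the bin on chromosome 11 at 21550001 to 21560000 (33 against 9 tags, ratio 3.35), 12 ChIP tags fell in the last 1 kb with no input tag there.

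Among bins with at least 20 input tags, the highest ratio was 2.45 (1.48 to 4.20), from 59 and 22 tags between 100430001 and 100440000 on chromosome 1, 544.4 kb from a bounding peak. Next came 40660001 to 40670000 on chromosome 10, at 2.39 (1.42 to 4.17), and 67200001 to 67210000 on chromosome 3, at 2.30 (1.45 to 3.74). The other members of the top 5, on chromosome 15 at 52430001 to 52440000 (2.15) and chromosome 3 at 67490001 to 67500000 (2.07), did not pass the adjusted threshold. Both bins on chromosome 3 lay in the stretch above 1.

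A different kind of bin was found on chromosome 9 at 70770001 to 70780000, chosen after its values were seen. It held 218 ChIP and 113 input tags, a ratio of 1.76 (1.399 to 2.23), with input at 3.53 times the genome mean. A single 1 kb, from 70777001, held 199 of its ChIP tags and 90 of its input tags. Its 218 ChIP tags lay at 110 distinct positions and strands, and the input file holds no repeated position at all. With 1 ChIP tag per position and strand its ratio was 0.893 (0.680 to 1.17) and it was no longer called. The other 16 bins kept their call under that count.

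The bins higher in input had a median of 11 ChIP and 33 input tags and a median ratio of 0.305. The richest in input, chosen after its values were seen, lay between 123170001 and 123180000 on chromosome 2, with 920 ChIP tags to 1339 of input, a ratio of 0.628 (0.577 to 0.684) and input at 41.8 times the genome mean. Chromosome 13 at 81840001 to 81850000 followed, with 911 and 1091 tags and a ratio of 0.763. Bins above 10 times the mean were rare in stretches: 5 of 54572, of which 4 were called higher in input. Codes U1 and U2 made up 51.4% and 68.8% of the ChIP tags of the named pair, against 18.2% in stretches as a whole.

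The ratio fell with distance from the bounding peaks over about the first 20 kb. In the first 1 kb inside the stretches the ratio was 1.24 (1.18 to 1.31), with 3279 ChIP and 2408 input tags over 700 edges. It was 1.13 (1.07 to 1.20) at 1 to 2 kb, 0.9504 (0.917 to 0.985) at 2 to 5 kb and 0.899 (0.874 to 0.926) at 5 to 10 kb. At 10 to 20 kb it was 0.894 (0.876 to 0.913). From 20 kb inward it changed little, from 0.864 (0.854 to 0.874) at 20 to 50 kb to 0.864 (0.860 to 0.868) at 250 to 500 kb, and it was 0.842 (0.838 to 0.845) beyond 500 kb. Moving tags 75 bases downstream lowered the value in the first 1 kb to 1.16.

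Input density fell over the same range, from 3.44 tags per kb in the first 1 kb to 2.76 at 1 to 2 kb, 2.67 at 20 to 50 kb and 2.26 beyond 500 kb. ChIP fell further, from 4.68 to 2.09 tags per kb. The first 1 kb was thus richer in both libraries than the interior.

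Between 20 and 50 kb from the nearer peak, a class that every gap of 100 kb or more fills, the ratio was lower in longer gaps. It was 0.942 (0.939 to 0.944) in gaps of 100 to 250 kb, 0.918 (0.913 to 0.923) in gaps of 250 to 500 kb and 0.898 (0.891 to 0.906) in gaps of 500 kb to 1 Mb. In stretches of 1 to 2 Mb it was 0.870 (0.859 to 0.882), and in those of 2 Mb or more 0.835 (0.811 to 0.859), where the last pair of intervals lay edge to edge. Input density fell in the same order, from 3.68 to 3.33, 3.01, 2.69 and 2.57 tags per kb, and its part in the result was not tested. At 100 to 250 kb, a class that gaps of 500 kb or more fill, the ratio was 0.890 (0.887 to 0.893) in gaps of 500 kb to 1 Mb, 0.872 (0.867 to 0.877) in stretches of 1 to 2 Mb and 0.842 (0.831 to 0.853) in longer ones. Within chromosomes, stretches were below gaps of 250 kb to 1 Mb at this distance on 19 of 20 autosomes, with separate intervals on 12, although gaps under 500 kb reach only part of this class. Chromosome 19 again went the other way, at 1.70 (1.53 to 1.90) against 1.19 (1.14 to 1.24).

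Close to the peaks no such order was found. Within 1 kb the ratio was 1.23 in gaps of 100 to 250 kb, 1.26 in those of 250 to 500 kb, 1.29 in those of 500 kb to 1 Mb and 1.28 (1.21 to 1.36) in stretches of 1 to 2 Mb. In the 65 stretches of 2 Mb or more it was 1.10 (0.967 to 1.24), from only 554 ChIP and 462 input tags, and this interval overlapped that of the stretches of 1 to 2 Mb.

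**Figure D4:**
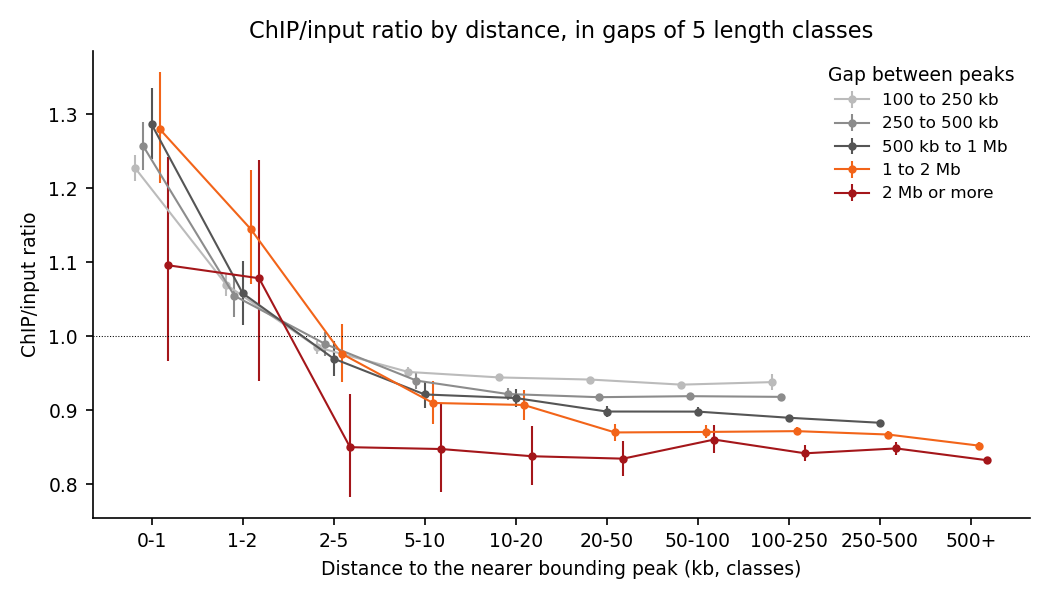
Points give the ChIP/input ratio by distance to the nearer bounding peak (classes in kb) for gaps of 5 length classes with input at 50% or more of the genome mean, and vertical lines are exact 95% counting intervals. All classes fall from above 1 in the first 1 kb to a lower level, which at 20 to 50 kb goes from 0.942 in the shortest gaps to 0.835 in stretches of 2 Mb or more.

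The 350 stretches were bounded by 654 peaks, 2.74% of the 23866 autosomal peaks. Of these, 608 had a stretch on 1 side only and 46 stood between 2 stretches. A typical bounding peak was of ordinary size, at a median of 1000 bases wide (interquartile range 600 to 1600) with medians of 22 ChIP and 5 input tags. The other autosomal peaks had medians of 1000 bases, 23 ChIP and 6 input tags. The widest bounding peak was 7.0 kb, and 1 had input above 10 times the genome mean.

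Bounding peaks had somewhat higher ratios. Their median was 4.05 (3.88 to 4.27), against 3.66 (3.66 to 3.76) in the others, where peaks with no input tag were set at 3 tags and count as lower bounds (10 of 654 bounding peaks). A ratio of at least 4 was found in 332 (50.8%), against 45.3% of all autosomal peaks, and one of at least 8 in 84 (12.8%), against 11.2%. Ratios of at least 2 were found in 96.6%, against 93.7%. The peaks were listed from these same tags, so these values are given with no test.

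The gap between the medians was found at widths of 1.0 kb and above. At 2.6 kb or more, the median was 5.38 (4.55 to 6.06) for the 48 bounding peaks and 3.93 (3.83 to 4.06) for the other peaks, both without those of input above 10 times the mean. At 1.6 to 2.4 kb the values were 4.67 (4.16 to 5.28) and 4.06 (3.99 to 4.14), and at 1.0 to 1.4 kb they were 4.02 (3.81 to 4.42) and 3.53 (3.47 to 3.66). Below that the intervals overlapped, with 3.66 (3.35 to 3.96) against 3.96 (3.66 to 4.11) at 0.2 to 0.4 kb. Peaks that bounded no stretch but lay at least 100 kb from any other had 4.73 (4.37 to 5.06) at 2.6 kb or more and 4.85 (4.68 to 5.03) at 1.6 to 2.4 kb. Those intervals overlapped the ones of bounding peaks, so no difference from other lone peaks was resolved.

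**Figure D5:**
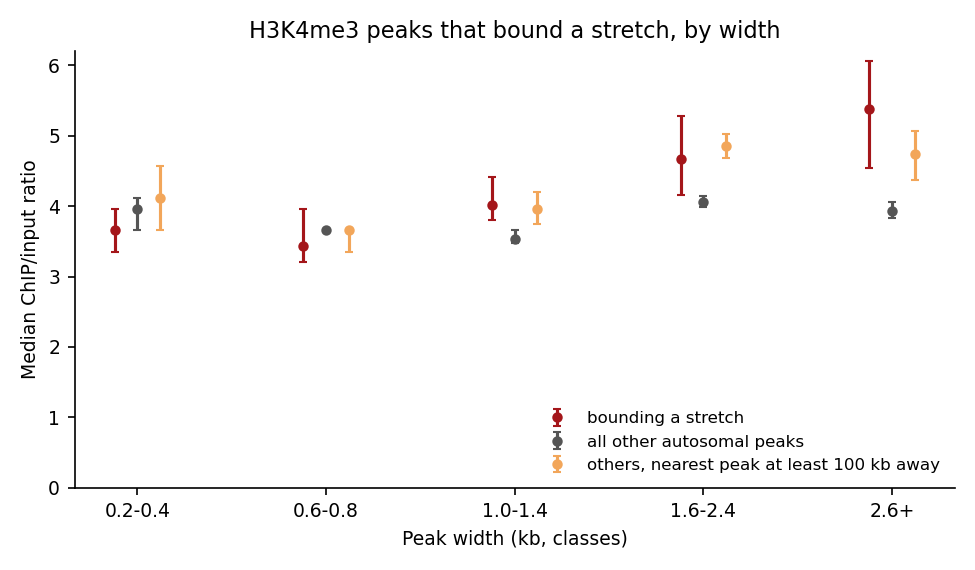
Points give the median ChIP/input ratio of H3K4me3 peaks by width class in kb, with 95% order-statistic intervals, for peaks that bound a stretch, all other autosomal peaks (both without high input) and those of the others whose nearest peak is at least 100 kb away. At 2.6 kb and above the medians are 5.38, 3.93 and 4.73.

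By the rule, a bounding peak has no other peak within 1 Mb on at least 1 side, so its nearest peak is not compared with that of other peaks. For the 608 with a stretch on 1 side only, the nearest peak was a median of 151 kb away. It was at least 100 kb away for 371 of them (61.0%) and within 5 kb for 98 (16.1%), so a stretch could begin at a lone peak or at the edge of a cluster of peaks. The 46 peaks between 2 stretches, each at least 1 Mb from any other peak, had a median width of 1200 bases and a median ratio of 4.35 (3.84 to 5.48).

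The ratio beside a bounding peak showed no resolved difference between its inner and outer sides. Over 371 peaks with a stretch on 1 side and a gap of at least 100 kb on the other, the first 1 kb had a ratio of 1.23 (1.15 to 1.33) on the side of the stretch and 1.19 (1.10 to 1.28) on the outer side. At 10 to 50 kb the ratios were 0.875 (0.863 to 0.887) and 0.890 (0.878 to 0.903). The intervals overlapped in each of these classes and in those between, which does not show that the sides are equal.

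The longest stretch began at a broad and strong peak. On chromosome 5 from 25609401 to 25616200, that peak was 6.8 kb wide and held 256 ChIP and 39 input tags, a ratio of 6.0 (4.27 to 8.63). It was 381 kb from its nearest peak. The stretch ended at 32227801 to 32230400, a peak with 50 and 13 tags and a ratio of 3.52 (1.88 to 7.06).

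Other long stretches also had broad peaks at an edge. The peak that parted the neighbouring stretches of chromosome 5, from 68197201 to 68200000, held 113 ChIP and 16 input tags, a ratio of 6.46 (3.81 to 11.7). It was 3986 kb from its nearest peak. On chromosome 7 the peak from 148803601 to 148810600, the widest of the bounding peaks, held 179 and 36 tags, a ratio of 4.55 (3.16 to 6.70), and it too stood between 2 stretches.

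Some of the edges were narrow peaks. The 6.16 Mb stretch of chromosome 6 lay between a peak of 0.8 kb with 23 ChIP and 3 input tags (22940001 to 22940800) and one of 0.4 kb with 15 and 4 (29099401 to 29099800). Their ratios were 7.01 (2.12 to 36.5) and 3.43 (1.09 to 14.2). On chromosome 4 the peak at 61298801 to 61299400 held 14 and 5 tags, a ratio of 2.56 (0.871 to 9.08). Chromosome 8 at 112377601 to 112377800 held 10 ChIP tags and no input tag in 0.2 kb, and the exact lower limit of its ratio was 2.05. If only peaks with a ratio of at least 4 bounded a stretch, there would be 532 stretches with 962 Mb in all.

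Among the 380 bounding peaks with at least 20 ChIP tags, the highest ratios rested on few input tags and the lowest on dense input. The highest ratios were 32.0 (5.38 to 1299) on chromosome 7 at 83014001 to 83014800, 30.2 on chromosome 11 at 88153401 to 88153800 and 23.8 on chromosome 1 at 194411801 to 194412400, each with 1 input tag against 35, 33 and 26 ChIP tags. The lowest were 1.67 (0.894 to 3.21) on chromosome 6 at 97176601 to 97178000, 1.77 on chromosome 17 at 84792001 to 84793200 and 1.89 on chromosome 15 at 53211201 to 53212800, whose input was 2.93 to 3.91 times the genome mean.

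Tags of codes U1 and U2 and repeated positions were slightly rarer in stretches. The stretches were chosen by the absence of peaks listed from these same tags, so the shares are a description of what was chosen. The meaning of the codes is not given in the sources used here. The codes U1 and U2 made up 18.2% of ChIP tags there (18.1 to 18.3), against 18.9% in shorter gaps (18.9 to 18.9). Single stretches had an interquartile range of 17.0% to 19.1%. Repeated positions made up 0.131% of ChIP tags in stretches and 0.210% in shorter gaps. With distinct U0 tags, scaled by their own total, the pooled ratio was 0.872 (0.870 to 0.874) in stretches and 0.960 in shorter gaps.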

How the data were processed

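Per the labels' protocols, chromatin was sonicated, precipitated with the H3K4me3 antibody and sequenced as single-end tags of 36 bases. The authors deposited 1 line per aligned tag with position, strand and a code. Its score is 0 in every line of the deposited files and was not used. ChIP tags span 36 bases with codes U0, U1 or U2, and input tags span 38 bases with U0 alone and no repeated position, so the files were not filtered alike. The deposited peak list, in steps of 200 bases, holds 1 p-value or q-value for each peak, which was not used. The submitters' processing notes name TopHat and SICER. Aligner and build of the tag files: not given in the sources used here.

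Each tag was counted at its 5' end, and coordinates are those of the files, written from 1. The genome mean is all input tags over the summed last tag ends of chromosomes 1 to 20 and X. Gaps run from the last base of a peak to the start of the next. Bins of 10 kb on a fixed grid needed 5 input tags and were called at an adjusted p below 0.05, by a two-sided exact binomial test checked on simulated tags. The simulated counts were independent Poisson draws, with unchanged bins centred on the ratio of the library totals. That check therefore does not cover repeated tags, spread beyond counting or bins that mostly lie below that ratio, as in the stretches. Named regions are the 10 longest stretches, the 5 highest and 5 lowest ratios, those beside the thresholds, the top 5 bins with at least 20 input tags, the edges of the 10 longest stretches, the 3 highest and 3 lowest bounding peaks with at least 20 ChIP tags and runs of 3 stretches. Members and rules were chosen with earlier results of these data known. PCR copies are not independent molecules. Software: matplotlib 3.10.9, numpy 2.4.6, pandas 2.3.3, Python 3.11.15, scipy 1.17.1.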

Additional observations from a re-analysis of the deposited data

How the results depend on the processing

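The limits of the rule moved the number of stretches, their length in Mb, the pooled ratio and the median ratio of bins. With a minimum of 0.5 Mb these were 1005, 1005.6, 0.876 and 0.865, with 2 Mb 65, 181, 0.839 and 0.831, with input of at least 75% of the genome mean 174, 245, 0.873 and 0.867, and with only peaks of a ratio of at least 4 as edges 532, 962, 0.895 and 0.874. With distinct U0 tags the pooled ratio was 0.872, the bin median 0.864 and the ratio 250 kb or more from both bounding peaks 0.863 (0.852 otherwise). Scaling by autosomal tags outside peaks gave 0.915, 0.904 and 0.908 for these, 1.33 within 1 kb of a bounding peak, 4.31 for the median bounding peak and 34 bins called higher in ChIP. Tags moved 75 bases gave 1.16 within 1 kb. Bins with at least 20 input tags had a median of 0.820 and 4 calls. Of the 17 bins called in the main setting, 13 held fewer than 20 input tags, and a minimum on input favours low ratios. Without the 2 stretches above 1, an alternative chosen after the data were examined, 7 bins were called. Of 57 alternative values, 28 lay inside the main interval (counts and lengths: within a factor of 1.5) and 29 moved. None of the ratios among them crossed 1, which counts and lengths cannot do. Except where stated, the cause was not tested. At 24 input tags a bin, depth limits what single bins can show.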

Other observations

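The rule left out X, of which this male has a single copy and where input stood at 45.5% of the genome mean. Between peaks on X there were 41 gaps of 1 Mb or more. Of these, 9 held input at 50% or more of the genome mean, and 40 did so against the mean of X itself. The 40 covered 90.0 Mb, or 58.4% of the span of X, with a median length of 2.12 Mb and a longest of 5.22 Mb. They held 121675 ChIP and 122726 input tags, a ratio of 0.906 (0.899 to 0.913).

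Among the 12 autosomal gaps left out for low input, the longest was on chromosome 20 from 32681201 to 44477800 (11.8 Mb), with 101 ChIP and 65 input tags. The gap before it, from 30747401 to 32680600, held 1301 and 868 tags, a ratio of 1.37. Chromosome 16 from 21055001 to 22468600 held 2045 and 1486 tags, a ratio of 1.26 (1.18 to 1.35). Other gaps of low input with over 1000 input tags had 1.07 (chromosome 8 from 44501801 to 48158400) and 0.962 (chromosome 14 from 17257001 to 24122800).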
